A study of Mus musculus with 24 samples.

Results

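The receptors described here are 7 mouse odorant receptors that have been used widely as model genes, either because a ligand is known or because they were tagged in knock-in mice. They are Olfr2 (I7), Olfr16 (MOR23), Olfr17 (P2), Olfr73 (mOR-EG), Olfr78 (MOR18-2), Olfr151 (M71) and Olfr1507 (MOR28). They are a list of names, which was drawn up with earlier results of these data known. All 7 were found by Ensembl gene identifier among the 1190 odorant receptor genes and the 57010 gene identifiers of the count tables. Olfr160 (M72), the close relative of Olfr151, is given beside it.

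RNA was measured in the olfactory epithelium of wild-type male C57BL/6J mice aged 8 weeks. Every mouse had 4 h in an odor-free chamber and then 90 min with a filter paper that carried 10 µL of undiluted odorant or nothing. The libraries form 2 batches per the labels, AD and OC, and each batch has its own count table and its own control. The AD batch held an empty-paper control (AD control), acetophenone, decanal and a 1:1 mixture of both (AD mixture). The OC batch held an empty-paper control (OC control), octanal, cis-3-hexenol and a 1:1 mixture of both (OC mixture). Each of the 8 groups had 3 biological replicates per the labels. Each odorant was compared with the control of its own batch only.

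Odorant receptors are G protein-coupled receptors of the cilia of olfactory sensory neurons. Each mature neuron transcribes a single receptor gene from a single allele, so the RNA of a receptor in the whole tissue depends both on how many neurons chose it and on how much RNA each of them holds. In bulk RNA, fewer cells of a type and less RNA per cell cannot be told apart. Strong exposure to a ligand is known to lower the RNA of many of the receptors it activates, an effect that has been used to find the receptors of a ligand in living mice. I7 is known as a receptor of octanal and related aldehydes, MOR23 of lyral, mOR-EG of eugenol and vanillin, and M71 and M72 of acetophenone. MOR18-2 responds to short-chain fatty acids and is also expressed in blood vessels and the carotid body. P2 and MOR28 are known mainly from work on axon targeting and receptor choice. Olfr78 is a class I receptor, the fish-like class, and the other 6 are class II.

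The stretch of coding sequence best conserved among these receptors is shown first, for 5 of them. It lies at the inner end of the third transmembrane helix, and the capitals mark the 3 codons of the position known as the DRY motif. Each line gives 30 bases of the coding strand of the GENCODE M21 transcript. A stretch that was identical in several of the members and Olfr160 was left out. The 5 lines therefore cannot show how well short reads can be assigned to single genes.
Olfr16: atgggttatGATCGTTATgtggctatttgt
Olfr17: atggcatatGACCGCTACatggcgatctgt
Olfr73: atggcttatGACAGGTTTgtggccatccgc
Olfr78: atggcctttGACCGGTACgtggctatctgc
Olfr1507: atggcctatGATCGCTATgtggccatttgt
Over whole transcripts, most 50-base windows of each gene were found in no other gene, with only the transcript strand searched. The share of 50-base windows found in no other gene was 99% for Olfr2, 100% for Olfr16, 99.2% for Olfr17, 97.6% for Olfr73 and 94% for Olfr1507. It was 85.8% for Olfr78, which shares windows with Olfr560, and Olfr78 was the member whose deposited counts were most often not whole. It was lowest for Olfr151, at 67.1%, with every shared window in Olfr160.

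Olfr151 had next to no counts in these libraries. Its identifier held 3 counts in all, 2 in the OC control 2 library and 1 in the octanal 2 library, and 0 in the other 22 libraries. Over the same 24 libraries Olfr160 held 1517 counts. A count of 0 allows up to 3 counts, which is at most 0.158 CPM (counts per 1000000 counts of a library) in any of the 22 libraries, for counting error only. Olfr151 did not pass the filter on low counts and was not tested, so the odorant comparisons cover 6 of the 7 receptors. Very low totals were uncommon among receptors: 40 of the 1190 receptor identifiers had 3 or fewer counts over all libraries, 18 of them with 0.

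The reference annotations class Olfr151 as a pseudogene in this strain, as a polymorphic pseudogene in GENCODE M21 and as a transcribed pseudogene in RefSeq. Its annotated coding transcript of 929 bases aligned to the 930 bases of the Olfr160 frame with 899 identical bases (96.7%), 30 substituted bases and 1 gap base. The gap fell at base 741 of the Olfr160 frame, counted from 1 at the start codon, inside the run of G printed in capitals in these windows.
Olfr160: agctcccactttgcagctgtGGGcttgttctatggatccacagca
Olfr151: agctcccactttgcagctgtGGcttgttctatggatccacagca
After the gap the Olfr151 frame met a stop codon, the capitals of the next window, and held 258 codons before it, against 309 in Olfr160.
Olfr151: ccacagcattcatgtactTAAagccttcta
The longest identical run of the 2 transcripts was 177 bases, so reads within it fit both genes. Whether reads of this locus were counted under one of the 4981 identifiers without a name in the annotation was not determined.

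**Figure D1:**
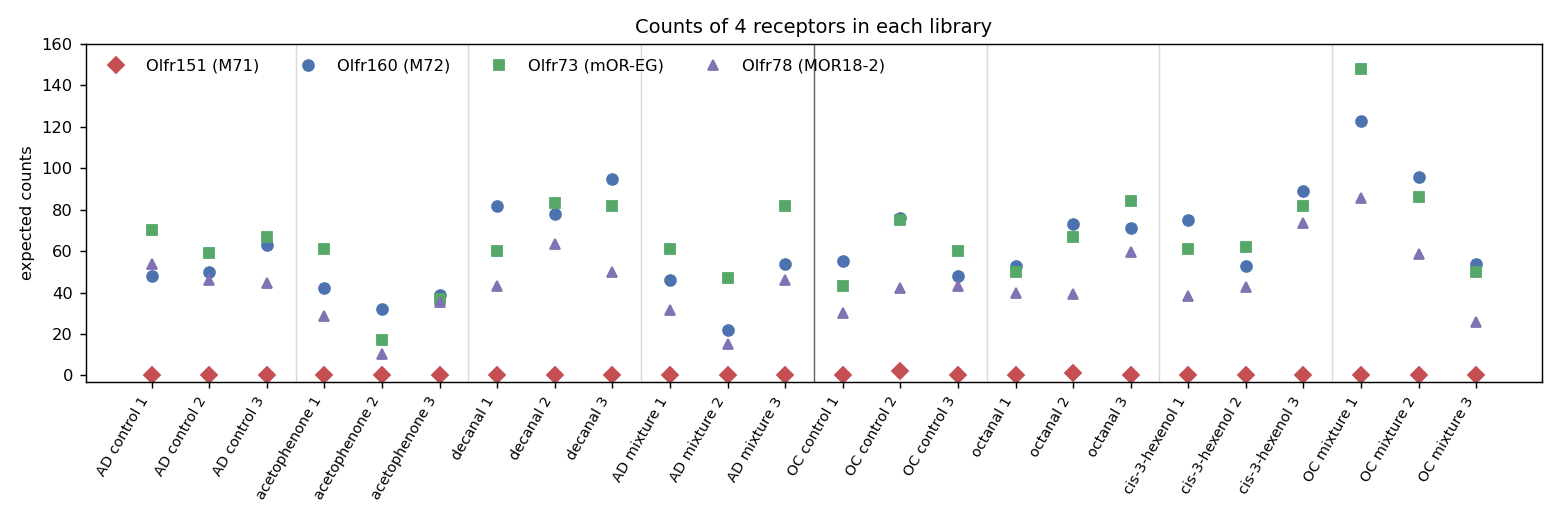
Deposited expected counts (y axis) of Olfr151, its relative Olfr160, Olfr73 and Olfr78 in each of the 24 libraries (x axis). Olfr151 lies at 0 in 22 libraries and at 1 or 2 in the others, while Olfr160 ranges from 22 to 123.

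The libraries held 20604861 to 24802512 counts (AD batch) and 19003768 to 24531349 (OC batch). Defining markers of mature olfactory sensory neurons (Omp, Gnal, Adcy3, Cnga2 and Rtp1) summed to between 12025 and 17202 CPM in every library. The sum was highest in the OC control, at 15315 to 17202 CPM. It was 13388 to 13872 with octanal, 14124 to 14907 with cis-3-hexenol and 14244 to 14895 with the OC mixture. The markers did not move together. With octanal the log2 fold changes were -0.45 for Omp, 0.12 for Gnal, 0.57 for Adcy3, 0.27 for Cnga2 and 0.21 for Rtp1. All receptor genes together held 0.536% ± 0.0178 (SD, n = 3) of the counts in the AD control, and 0.520%, 0.486% and 0.479% with acetophenone, decanal and the AD mixture. They held 0.386% ± 0.0525 in the OC control and 0.522%, 0.513% and 0.556% with octanal, cis-3-hexenol and the OC mixture. No library of the OC control reached the lowest library of the 3 OC exposures, so the level of receptors as a whole was low in the group that served as their control.

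Per kilobase of median transcript length, Olfr1507 was the most abundant receptor in both controls. It had 127.0 ± 9.85 CPM per kilobase in the AD control and 128.0 ± 27.1 in the OC control (SD, n = 3) and ranked 1 of 1190 in both. Olfr17 came next among the members, with 5.21 ± 0.428 and 2.88 ± 0.876 CPM per kilobase and ranks 110 and 144. Olfr16 had 2.40 ± 0.591 and 2.08 ± 0.546 and ranked 249 and 213.

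The remaining members lay nearer the middle of the family, whose median was 0.787 CPM per kilobase in the AD control and 0.647 in the OC control. Olfr73 had 1.35 ± 0.0706 and 1.37 ± 0.469 CPM per kilobase, Olfr2 had 1.15 ± 0.0695 and 1.78 ± 0.366, and Olfr78 had 0.742 ± 0.0472 and 0.656 ± 0.174. Olfr78 thus lay on either side of the family median, with 47.7% of receptors below it in the AD control and 50.3% in the OC control. These levels depend on the length used as the divisor. The median and the longest annotated transcript have 606 and 2803 bases for Olfr1507 and 1812 and 6178 for Olfr2. The median length of Olfr1507 is shorter than its reading frame of 942 bases, so its level by that divisor is likely too high. By the longest transcript Olfr1507 ranked 2 in the OC control. Divided by the longest transcript in the AD control, Olfr1507 had 27.4 CPM per kilobase and ranked 4 in place of 1, and Olfr2 had 0.336 and ranked 773 in place of 473.

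**Figure D2:**
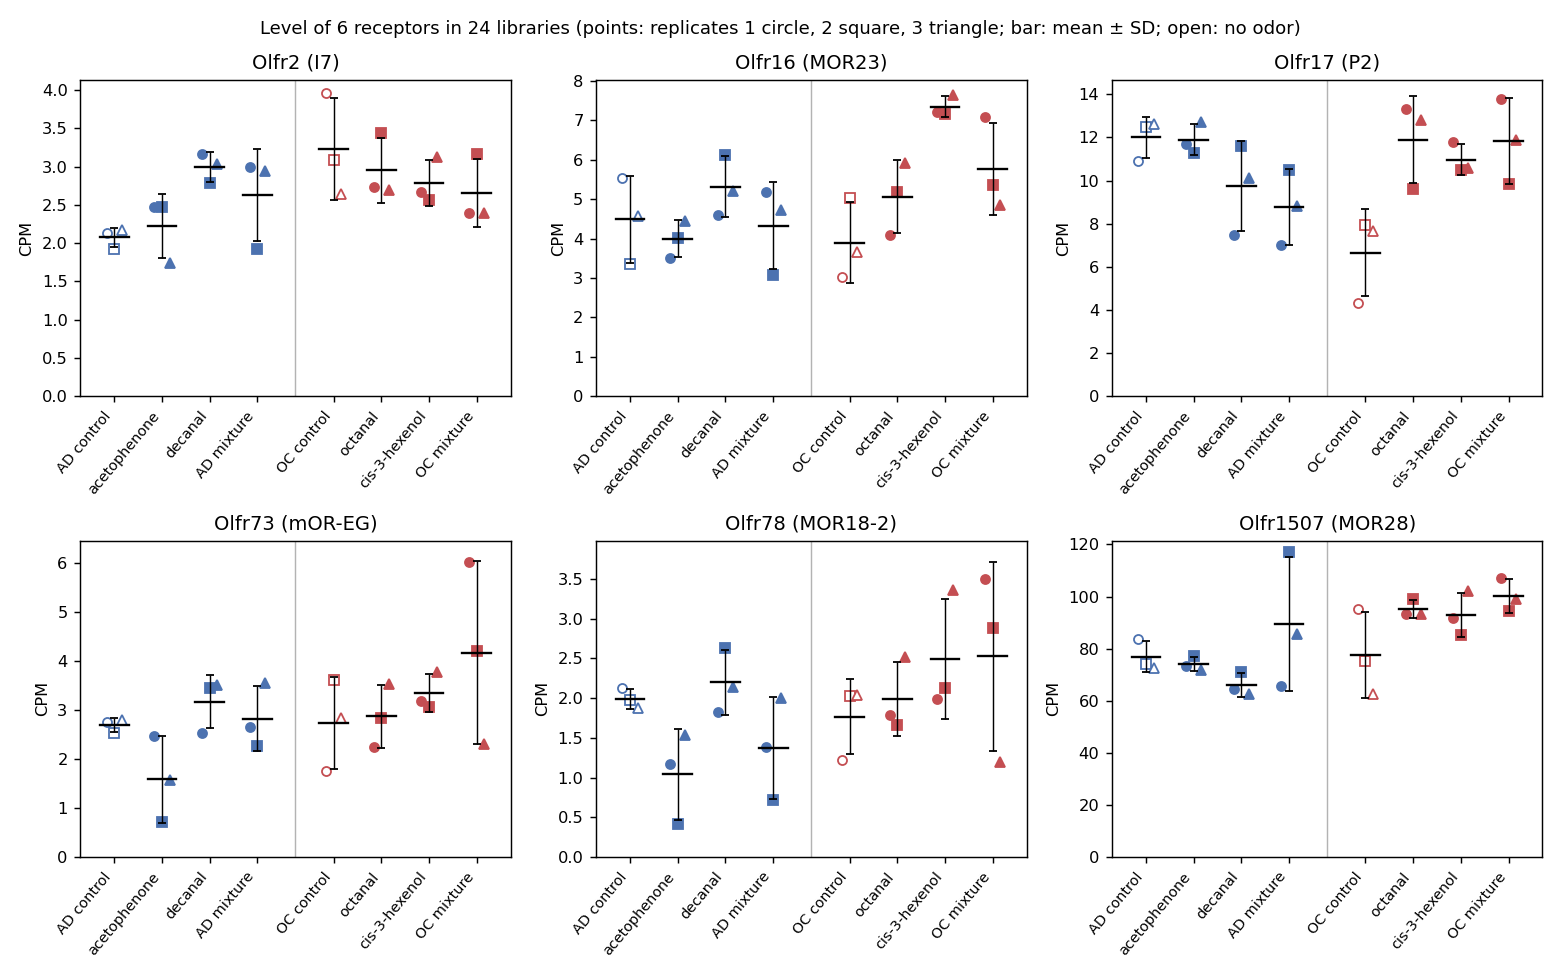
Level (CPM, y axis, from 0) of 6 receptors in each group (x axis); points are single libraries, bars the mean ± SD of 3, open symbols the empty-paper controls, and the grey line separates the 2 batches. Olfr17 lies at 4.32 to 7.96 CPM in the OC control, below all 9 libraries of the OC exposures, and Olfr73 and Olfr78 have their lowest points in the acetophenone 2 library.

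Against the control of the same batch, a gene was called where edgeR's quasi-likelihood test gave a Benjamini-Hochberg adjusted p under 0.05 over all genes tested. Acetophenone called 0 of the 6 receptors (0.00512% of all genes were called). Before adjustment 2 of the 6 had a p under 0.05, and DESeq2 also called 0. Decanal called 0 of 6 (23.9% of all genes), with 1 p under 0.05 before adjustment, and DESeq2 called 0 here too. The AD mixture called 1, Olfr17, which was lower (11.6% of all genes were called lower).

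In the OC batch every call was towards a higher level. Octanal called 1 receptor, Olfr17 (14.4% of all genes were called higher). Cis-3-hexenol called 2, Olfr16 and Olfr17 (5.56%), and the OC mixture called 2, Olfr17 and Olfr1507 (11.5%). These comparisons share their 3 control libraries. Their median log2 fold change was 0.24, 0.41 and 0.55 with octanal, cis-3-hexenol and the OC mixture, beside 0.35, 0.42 and 0.54 over the 969 receptors tested and -0.02, -0.01 and -0.01 over all genes. With the receptor counts as library size, which moved the median of all genes to -0.42, -0.38 and -0.52, the medians over the receptors were -0.04, 0.05 and 0.03. Of the receptors tested, 17.3%, 9.6% and 26.9% were called. In the AD batch the members' medians were -0.11, 0.19 and 0.01 with acetophenone, decanal and the AD mixture, beside -0.11, -0.02 and -0.10 over 976 receptors.

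**Figure D3:**
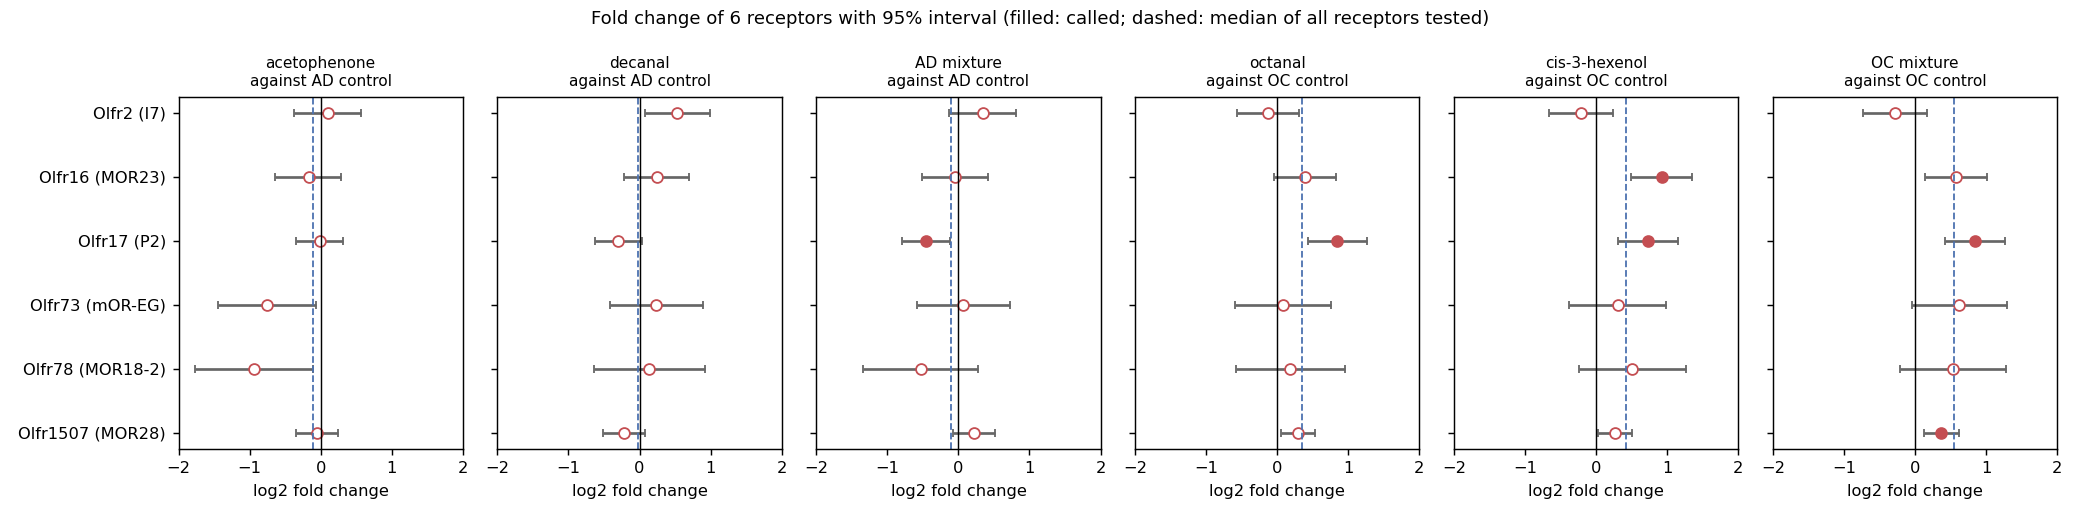
Log2 fold change (x axis) of 6 receptors (rows) in each odorant comparison (panels) with its 95% interval; filled points were called, and the dashed line is the median of all receptors tested. Olfr17 is called in 4 panels, lower with the AD mixture at -0.46 and higher in the 3 OC panels, and Olfr2 lies left of the dashed line in all 3 OC panels.

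Olfr2, the octanal receptor I7, was not called with octanal or in any other comparison with a control. Its level was 3.96, 3.09 and 2.65 CPM in the OC control and 2.73, 3.44 and 2.69 CPM with octanal, and the groups overlapped. The log2 fold change was -0.13 (SE 0.21, 95% interval -0.57 to 0.31, edgeR adjusted p = 0.675).

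The level was 2.67, 2.57 and 3.13 CPM with cis-3-hexenol and 2.40, 3.17 and 2.40 CPM with the OC mixture. The log2 fold changes were -0.21 (interval -0.66 to 0.23) and -0.29 (interval -0.74 to 0.16), neither called. Most receptors had a positive fold change in these exposures, while that of Olfr2 was negative with an interval on both sides of 0. Of the 969 receptors tested, only 11.2% had a lower fold change than Olfr2 with octanal, 4.64% with cis-3-hexenol and 1.86% with the OC mixture.

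Setting each receptor against the sum of all receptor counts removes the level of the family. On this measure 2, 3 and 1 of the 6 members had groups that did not overlap with acetophenone, decanal and the AD mixture, beside 20.1%, 20.0% and 13.0% of the receptors tested. The counts were 1, 2 and 1 of 6 with octanal, cis-3-hexenol and the OC mixture, beside 15.2%, 14.0% and 13.0%. Olfr2 was among them in all 3 OC exposures.

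As a share of all receptor counts, Olfr2 was lower in all 9 OC exposure libraries than in the 3 OC control libraries. The share was 0.104%, 0.0711% and 0.0725% in the OC control and 0.0545%, 0.0685% and 0.0494% with octanal. It was 0.0547%, 0.0511% and 0.0587% with cis-3-hexenol and 0.0402%, 0.0586% and 0.0447% with the OC mixture. The nearest approach was octanal 2 at 0.0685% against OC control 2 at 0.0711%. Each of the 3 differences had an exact two-sided permutation p of 0.1, the smallest that 3 against 3 libraries can give, so the design cannot pass 0.05. Shares that were lower without overlap were found in 9.49%, 6.81% and 6.6% of the receptors tested. With the receptor counts as library size, the log2 fold change of Olfr2 was -0.53 with octanal, which was not called, and -0.59 with cis-3-hexenol and -0.80 with the OC mixture, which were. The call of Olfr2 in the last pair therefore exists on this scale only.

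With decanal, an aldehyde of longer chain, Olfr2 was at 3.17, 2.79 and 3.04 CPM against 2.13, 1.93 and 2.17 in the AD control. All 3 decanal libraries lay above the controls, as was true in one direction or the other of 40.7% of all genes. The log2 fold change of 0.53 (SE 0.22, interval 0.07 to 0.99) was not called (adjusted p = 0.0908), and 91.7% of the receptors tested had a lower one. The value was 0.34 with the AD mixture and 0.10 with acetophenone, neither called.

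**Figure D4:**
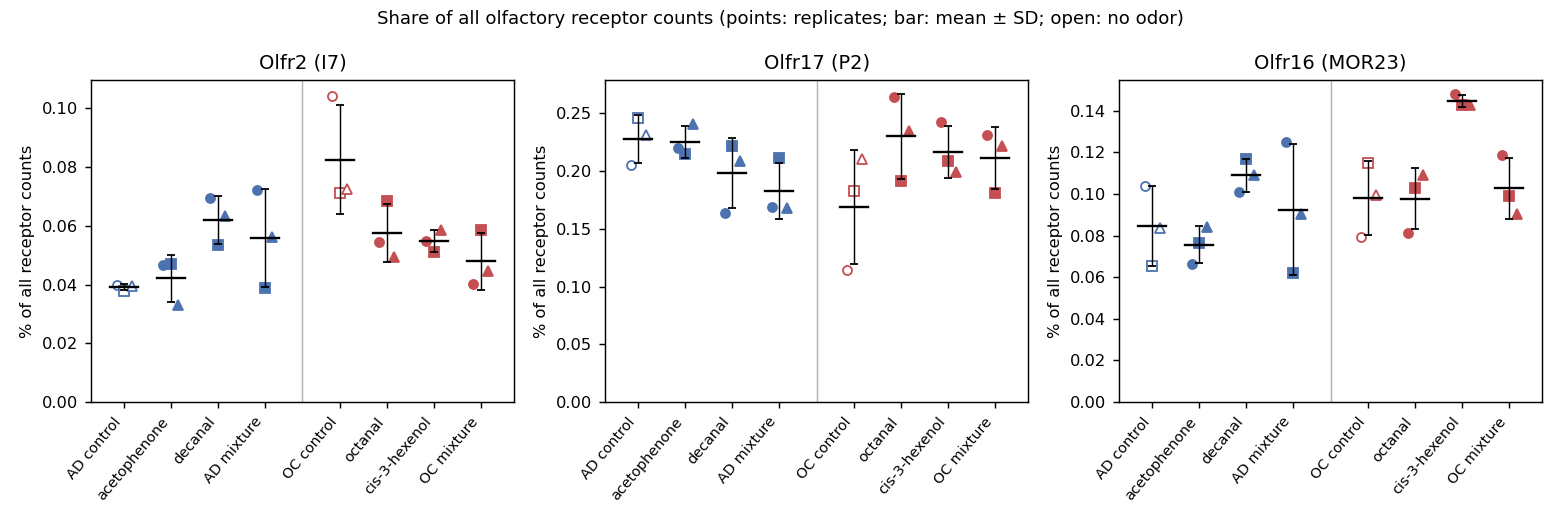
Share of all receptor counts (percent, y axis, from 0) taken by Olfr2, Olfr17 and Olfr16 in each group (x axis); points are single libraries, bars the mean ± SD of 3, open symbols the controls. Olfr2 has a mean of 0.0826% in the OC control and 0.0478% with the OC mixture, without overlap, Olfr16 stands at 0.145% with cis-3-hexenol, and the Olfr17 groups of the OC batch overlap.

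Olfr17, the P2 receptor, was called in more comparisons than any other member. In the OC control it was at 4.32, 7.96 and 7.67 CPM. With octanal it was at 13.3, 9.60 and 12.8 CPM, with cis-3-hexenol at 11.8, 10.5 and 10.6 CPM, and with the OC mixture at 13.8, 9.82 and 11.9 CPM. All 9 exposed libraries lay above the 3 controls. Groups that did not overlap were found for 40.4%, 30.6% and 34.6% of all genes in these comparisons. The log2 fold changes were 0.84 (SE 0.20, interval 0.43 to 1.26, adjusted p = 0.00498), 0.73 (SE 0.20, interval 0.31 to 1.15, adjusted p = 0.0277) and 0.84 (SE 0.20, interval 0.42 to 1.26, adjusted p = 0.0062).

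The lowest control, OC control 1, bore on the size of this rise. The range of the log2 fold change with each library left out in turn was 0.62 to 1.00 with octanal and 0.61 to 1.00 with the OC mixture, and both stayed called in all 6 repeats. With cis-3-hexenol the range was 0.50 to 0.88, and the call was lost without OC control 1 and without any of the 3 exposed libraries. With the receptor counts as library size the values were 0.45, 0.36 and 0.33, none of them called. The share of receptor counts overlapped as well, at 0.114%, 0.183% and 0.210% in the OC control and 0.264%, 0.191% and 0.235% with octanal.

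In the AD batch the same receptor moved the other way. It was at 10.9, 12.5 and 12.6 CPM in the AD control and at 6.99, 10.5 and 8.81 CPM with the AD mixture, without overlap, as were 36.6% of all genes in one direction or the other. The log2 fold change was -0.46 (SE 0.16, interval -0.79 to -0.12, adjusted p = 0.0485). This call was lost without any of the 3 AD controls, AD mixture 1 or AD mixture 3, with a range of -0.62 to -0.33. With decanal Olfr17 was at 7.48, 11.6 and 10.1 CPM, a log2 fold change of -0.30 that was not called (adjusted p = 0.176), and with acetophenone the value was -0.01.

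Octanal and decanal are straight-chain aldehydes that differ in chain length, given here at the same volume for the same time but in separate batches. The response of Olfr17 to octanal minus its response to decanal, each against its own control, was 1.13 on the log2 scale (SE 0.27, interval 0.58 to 1.68, adjusted p = 0.00166), and 39.2% of all genes were called in this comparison. The receptors tested had a median difference of 0.32, and 92.5% of them had a lower value than Olfr17. For Olfr2 the difference was -0.68 (interval -1.28 to -0.09, adjusted p = 0.0627), which was not called, and for Olfr1507 it was 0.49 (interval 0.08 to 0.90, adjusted p = 0.0535), also not called. For Olfr16, Olfr73 and Olfr78 the intervals were -0.50 to 0.76, -1.15 to 0.80 and -1.09 to 1.14, which leave room for differences in both directions. Chain length and batch cannot be told apart in this comparison.

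Markers of blood, marrow and bone differed from the controls in the groups in which Olfr17 was called, and also with decanal, in which it was not. The 4 red cell markers (Hbb-bs, Hbb-bt, Hba-a1 and Alas2) summed to 1484 to 3073 CPM in the OC control and to 512 to 783 with octanal, 895 to 1377 with cis-3-hexenol and 593 to 1266 with the OC mixture. They summed to 341 to 443 CPM in the AD control, 1245 to 1755 with the AD mixture and 1458 to 1744 with decanal. The 5 neutrophil and marrow markers were all called lower with octanal (median log2 fold change -2.04) and with the OC mixture (-0.84), 0 of 5 with cis-3-hexenol by edgeR (DESeq2 called 1, and 2 had a p under 0.05 before adjustment), and all called higher with the AD mixture (3.01) and with decanal (2.47). The 4 bone markers went from 1905 to 3033 CPM in the OC control to 952 to 1111 with octanal, and from 1121 to 1326 in the AD control to 1827 to 2939.6 with the AD mixture and 1587 to 2218 with decanal. None of these markers was at 0 throughout a group. The part of these tissues in the receptor results was not tested.

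Olfr16, the lyral receptor MOR23, rose with cis-3-hexenol. It was at 3.02, 5.02 and 3.65 CPM in the OC control and at 7.22, 7.17 and 7.65 CPM with cis-3-hexenol. The groups did not overlap, and the 3 exposed libraries were close to each other. The log2 fold change was 0.92 (SE 0.20, interval 0.49 to 1.35, adjusted p = 0.0107).

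This call was kept in all 9 other settings of the analysis, with values from 0.56 to 0.93. It was 0.56 with the receptor counts as library size, and the share of receptor counts was 0.148%, 0.143% and 0.143% against 0.0795%, 0.115% and 0.0997%. Over the 6 repeats that left out 1 library the value ran from 0.77 to 1.14, and the call was lost without cis-3-hexenol 3. With octanal Olfr16 was at 4.08, 5.18 and 5.92 CPM (log2 fold change 0.39, adjusted p = 0.174), and with the OC mixture at 7.08, 5.37 and 4.84 CPM (0.58, adjusted p = 0.0507), neither called. The value with the OC mixture was called in 4 of the 9 other settings, DESeq2's test among them, and was 0.07 with the receptor counts as library size. Cis-3-hexenol against octanal gave 0.54 (interval 0.12 to 0.95), which was not called (adjusted p = 0.268), so a response particular to cis-3-hexenol was not shown. In the AD batch Olfr16 had values of -0.17, 0.24 and -0.05 with acetophenone, decanal and the AD mixture, none called.

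Olfr1507, the MOR28 receptor, rose by a small amount with the OC mixture. It was at 95.2, 75.1 and 62.6 CPM in the OC control and 107.0, 94.3 and 99.1 CPM with the OC mixture, and the groups overlapped through OC control 1. The log2 fold change was 0.37 (SE 0.11, interval 0.12 to 0.61, adjusted p = 0.0284), smaller than the median of 0.54 over all receptors. It turned to -0.15 with the receptor counts as library size. The call was lost without OC control 2, OC control 3, OC mixture 1 or OC mixture 3, with a range of 0.24 to 0.55.

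Octanal and cis-3-hexenol gave Olfr1507 0.29 and 0.26, neither called (adjusted p = 0.0643 and 0.152). In the AD batch the receptor was at 83.7, 74.1 and 72.7 CPM in the control and 65.8, 117.0 and 85.6 CPM with the AD mixture, whose libraries spread more widely than those of any other group. The value with the AD mixture was 0.22 (interval -0.08 to 0.51, adjusted p = 0.298), and it ran from -0.04 without AD mixture 2 to 0.38 without AD mixture 1, where it was called.

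Olfr73, the eugenol receptor mOR-EG, and Olfr78, the fatty acid receptor MOR18-2, were low with acetophenone without being called. Olfr73 was at 2.76, 2.53 and 2.79 CPM in the AD control and 2.47, 0.711 and 1.57 CPM with acetophenone. Olfr78 was at 2.13, 1.97 and 1.88 CPM in the AD control and 1.17, 0.418 and 1.53 CPM with acetophenone. Neither pair of groups overlapped, which held for 14.5% of all genes, and acetophenone 2 was the lowest library for both, with 17 and 10.29 counts.

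The log2 fold changes with acetophenone were -0.76 for Olfr73 (interval -1.45 to -0.07) and -0.94 for Olfr78 (interval -1.77 to -0.11), with adjusted p of 0.714 and 0.703. Without acetophenone 2 they were -0.41 and -0.56. The 5 markers of smooth muscle and vessels (Acta2, Myh11, Tagln, Pecam1 and Cdh5), a further site of Olfr78 expression, summed to 521 to 585 CPM with acetophenone and 534 to 584 in the AD control. Of these 5, edgeR and DESeq2 called 0, with 1 at an unadjusted p under 0.05. The 5 neutrophil and marrow markers summed to 5.68 to 18.6 CPM with acetophenone and 17.5 to 30.5 in the AD control (median log2 fold change -1.85). EdgeR and DESeq2 called 0 of them, and all 5 had a p under 0.05 before adjustment. Their part in the low values of Olfr73 and Olfr78 was not tested. Olfr160, the M72 receptor of acetophenone, was at 1.89, 2.15 and 2.63 CPM in the AD control and 1.70, 1.34 and 1.65 CPM with acetophenone. Its value of -0.50 (interval -1.07 to 0.06, adjusted p = 0.768) was not called.

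Against acetophenone, decanal called 1 of the 6 receptors, Olfr73, which was higher (12.6% of all genes were called higher). Olfr73 was at 2.54, 3.46 and 3.51 CPM with decanal, a log2 fold change of 1.00 (SE 0.32, interval 0.31 to 1.68, adjusted p = 0.0317). The call was lost without acetophenone 2, where the value was 0.64, and also without acetophenone 3, decanal 2 or decanal 3. Olfr78 was at 1.82, 2.63 and 2.14 CPM with decanal and had a value of 1.08 (interval 0.25 to 1.90, adjusted p = 0.0517), which was not called. Olfr160 was at 3.47, 3.25 and 4.07 CPM with decanal, all above the acetophenone libraries (groups did not overlap for 42.1% of all genes). Its value was 1.20 (SE 0.26, interval 0.65 to 1.75, adjusted p = 0.00307), and it stayed called in all 6 repeats that left out 1 library, from 1.09 to 1.26. Against the AD control, Olfr160 was higher in all 3 decanal libraries, at 0.69 (SE 0.25, interval 0.16 to 1.23, adjusted p = 0.0566). That value was not called here and was called in 4 of the 9 other settings. It is larger in size than the -0.50 of acetophenone against the same controls.

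The mixtures were set against their parts in the same fits. The AD mixture gave a lower Olfr17 than acetophenone alone, at -0.44 (SE 0.16, interval -0.78 to -0.11, adjusted p = 0.0498, with 13.8% of all genes called lower). This call was lost without any acetophenone library, AD mixture 1 or AD mixture 3, with a range of -0.60 to -0.31. Against decanal alone the AD mixture called 0 of 6 receptors and 0.0% of all genes by edgeR, DESeq2 called 0, and 1 receptor had a p under 0.05 before adjustment. The 3 comparisons among octanal, cis-3-hexenol and the OC mixture likewise called 0 of 6 and 0.0% of all genes. There 1 receptor had a p under 0.05 before adjustment for cis-3-hexenol against octanal and 0 had one in the other comparisons, and DESeq2 called 0 in each. For Olfr17 the OC mixture was at 0.999 of the level with octanal, with a log2 interval of -0.40 to 0.40.

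In the OC batch Olfr73 and Olfr78 had positive values that were not called. With octanal, cis-3-hexenol and the OC mixture Olfr73 had 0.08, 0.30 and 0.62, and Olfr78 had 0.18, 0.51 and 0.53. Their widest spread was with the OC mixture, where Olfr73 was at 6.02, 4.20 and 2.30 CPM and Olfr78 at 3.50, 2.88 and 1.20 CPM. OC mixture 1 was the highest library for both receptors and OC mixture 3 the lowest of its group.

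Receptor genes lie in clusters, and the nearest 2 receptor genes on each side of a member were described beside the members. There were 25 such neighbours, of which the fits tested 24 (AD batch) and 23 (OC batch). With acetophenone edgeR and DESeq2 called 0 of 24 (4 at an unadjusted p under 0.05). EdgeR called 1 with decanal (Olfr1408, next to Olfr16, at 0.70) and 2 with the AD mixture, both lower and both next to Olfr17. With octanal, cis-3-hexenol and the OC mixture 2, 1 and 6 of 23 were called, all higher. Of all receptors tested, 4.82% were called with decanal, 4.92% with the AD mixture and 17.3%, 9.6% and 26.9% in the 3 OC comparisons, so the 6 of 23 with the OC mixture were near the share of the family. On chromosome 7, both neighbours of Olfr17 that were called had the sign of Olfr17. Called receptors as a whole mostly had that sign as well. With the AD mixture 4 were higher and 44 lower. With octanal, cis-3-hexenol and the OC mixture 164, 92 and 261 were higher and 4, 1 and 0 lower. The shared sign therefore does not set these neighbours apart from the family. Olfr716 was at -0.66 with the AD mixture and at 0.51, 0.70 and 0.60 with octanal, cis-3-hexenol and the OC mixture, and Olfr715 was at -0.69 with the AD mixture and 0.78 with the OC mixture, all called.

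The neighbours of Olfr2, 2 of which are also neighbours of Olfr17, did not share its low values in the OC batch. Their medians were 0.17, 0.22 and 0.39 over the 3 neighbours tested, and Olfr6 and Olfr711 were called higher with the OC mixture at 0.39 and 0.57. The 4 neighbours of Olfr78 all had negative values with acetophenone (median -0.76, from -1.71 to -0.10), as did the 4 neighbours of Olfr151, which include Olfr160 (median -0.74, from -1.96 to -0.50). Of these 8, edgeR and DESeq2 called 0, with 1 and 2 of each 4 at an unadjusted p under 0.05. The median over the 976 receptors tested with acetophenone was negative too, at -0.11. Olfr560, a neighbour of Olfr78, shares 50-base windows with it, so the counts of these genes are not fully separate. Next to Olfr1507, Olfr1509 was called higher with the OC mixture at 0.53.

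Across the 24 libraries, with log2 CPM centred on the mean of each batch, the gene most like each member was found among 19009 other genes. The libraries share depth and scaling, so these coefficients are descriptions only. For Olfr17 these were D6Wsu163e (Pearson r = 0.91) and the receptor Olfr464 (0.90), and for Olfr16 the trace amine receptor Taar7f (0.85) and the receptor Olfr666 (0.84). For Olfr73 they were Olfr994 (0.90) and Fam19a4 (0.89), for Olfr78 the receptors Olfr649 and Olfr655 (0.90 each), and for Olfr1507 the receptor Olfr1228 (0.81) and Ap1s2 (0.78). For Olfr2 the best match was 2810410L24Rik (0.84), and the closest receptor, Olfr718-ps1, had an r of 0.56, the lowest such value among the members tested. Closest matches were not sought for other receptors, so how common such a value is in the family is not known.

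A list made mostly of genes that carry a receptor's signal or bring it to the cilium was described beside the receptors. The list also holds Omp, Nfia and Ckb. Of its 19 genes, 8, 8 and 10 were called higher and 3, 2 and 2 lower with octanal, cis-3-hexenol and the OC mixture (medians 0.21, 0.17 and 0.20). The 2 called lower with cis-3-hexenol and with the OC mixture were Omp and Nfia, with Nfia at -0.40 and -0.41. Of all genes, 14.4%, 5.56% and 11.5% were called higher and 15.0%, 6.65% and 12.7% lower in these comparisons. The shares of all genes called were 11.4% higher and 12.5% lower with decanal, and 10.6% higher and 11.6% lower with the AD mixture. Ric8b, which acts on the olfactory G protein, was higher at 0.61, 0.47 and 0.59, and Adcy3, the olfactory adenylyl cyclase, at 0.57, 0.38 and 0.40. Omp, the marker of mature neurons, was lower at -0.45, -0.31 and -0.32. With the AD mixture 1 was called higher and 11 lower (median -0.32), with Ric8b at -0.43 and Adcy3 at -0.51. With decanal 1 was called higher and 9 lower, and with acetophenone edgeR and DESeq2 called 0 of 19, with 1 at an unadjusted p under 0.05.

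Of 15 regulators of receptor choice, 1, 0 and 1 were called higher and 6, 6 and 6 lower in the OC comparisons, with 5 called higher and 5 lower with decanal and 3 and 3 with the AD mixture. Atf5, a factor of the response through which a newly chosen receptor stabilises its own choice, was lower at -1.14, -0.74 and -0.93 and higher with decanal at 0.53 and the AD mixture at 0.46. Lhx2 and Ebf1, which bind receptor enhancers and promoters, were not called in the OC comparisons or with the AD mixture. Of the other Ebf factors of the list, Ebf4 was not called in any comparison with a control, while Ebf3 and Ebf2 were called in some. Ebf3 was lower at -0.75, -0.52 and -0.59 in the OC comparisons, and higher with decanal at 0.25 and the AD mixture at 0.18. Ebf2 was called only with decanal and the AD mixture, lower at -0.39 and -0.41. With decanal Ebf1 was called lower at -0.21 and Lhx2 was not called. Of 7 genes whose RNA is known to follow the activity of sensory neurons upward, 5, 5 and 6 were called higher in the OC comparisons, with Lrrc3b at 1.27, 0.97 and 1.55 and Kcng1 at 1.38, 1.05 and 1.54. Kirrel2 was not called in any OC comparison, at 0.58, 0.07 and 0.21. S100a5, at 0.24, 0.27 and 0.45, was called with the OC mixture only. With the AD mixture 4 of 7 were called higher, and with decanal 3. With acetophenone edgeR called 0 of 7, DESeq2 called 1, and 3 had a p under 0.05 before adjustment. Of 10 immediate early genes, 5, 1 and 3 were called higher and 0, 1 and 0 lower in the OC comparisons, beside 0 and 2 with decanal and 2 and 1 with the AD mixture, with Nr4a1 at 1.99 with octanal and 1.62 with the OC mixture.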

How the data were processed

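The values are gene-level expected counts as deposited by the authors, 1 table per batch of 12 libraries. STAR 2.7.10b, Salmon 1.10.1, R 4.4.2 and GRCm39 are named per the submitters' processing notes, and their roles and the annotation are not given in the sources used here. Values that were not whole (12.8% and 12.6%) were rounded. Identifiers were named from GENCODE M21 (52029 of 57010 matched), whose genome build differs, so no coordinates are given. Unnamed identifiers held 0.313% and 0.321% of counts and were kept.

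Each table was fitted with all its groups in edgeR 4.0.16 (filterByExpr, TMM, quasi-likelihood F-test, two-sided, Benjamini-Hochberg over all genes tested, called under 0.05). The octanal and decanal responses were compared in a fit of all 24 libraries. CPM use TMM-scaled library sizes, and levels between genes are per kilobase. Receptors are genes named Olfr that GENCODE M21 types as protein coding or polymorphic pseudogene. Shares of receptor counts were compared with exact permutation tests. Alternatives were DESeq2 1.42.0 (test and size factors), receptor counts as library size, other filters, length and GC offsets, a replicate block, only the groups compared, and each library left out. Of the 24 pairs of libraries of a group, 0 held identical values. The fits were tested on simulated data.

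The members, gene lists and marker lists were chosen with earlier results of these data known. Named genes are all members, Olfr160, called neighbours, the 2 most alike genes and the most alike receptor of each member, and a few genes per list. The conserved stretch of the other receptors is not reported here.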

Additional observations from a re-analysis of the deposited data

Results flagged for a closer look

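The response of Olfr17 to octanal against the OC control and its response to decanal against the AD control differed by 1.13 on the log2 scale (SE 0.27), by an interaction term in a fit of all 24 libraries (edgeR adjusted p = 0.00166). Olfr17 was higher in 3 of 3 octanal libraries than in every OC control library, and in 2 of 3 decanal libraries it was below every AD control library. The difference was called in all 12 repeats that left out 1 library, from 0.92 to 1.31, and in all 9 other settings, from 0.64 to 1.21. In the same comparison 39.2% of all genes were called. Olfr17 was lower in every OC control library than in every AD control library, and its octanal libraries overlapped the AD control libraries. The odorants were given in separate batches, so chain length and batch cannot be told apart. None of the repeats or settings could separate them.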

How the results depend on the processing

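A tally of repeats under other settings was made for part of the comparisons of single receptors. It covers the tested members and Olfr160 against the controls, the response difference of the members, and a few comparisons between exposures. In it 688 repeats kept direction and call, 36 lost a call, 46 gained one and 46 changed sign. Calls gained in other comparisons, such as Olfr73 and Olfr1507 in AD mixture against acetophenone, are outside this tally. The cause of these changes was not tested. Members called in decanal against AD control were 1 without a filter and 1 with only the groups compared. In AD mixture against AD control they were 2 without a filter, 0 with length and GC offsets and 0 with receptor scaling. In octanal against OC control they were 2 without a filter, 2 by the DESeq2 Wald test and 0 with receptor scaling. In cis-3-hexenol against OC control they were 1 with only the groups compared, 1 with the replicate block plus length and GC offsets, and 3 without a filter. With receptor scaling they stayed 2, with Olfr2, lower at -0.59, in place of Olfr17. In OC mixture against OC control they were 1, Olfr17, under each of length and GC offsets, the replicate block with offsets, and only the groups compared. With receptor scaling the 1 member called was Olfr2, lower at -0.80. They were 3, with Olfr16 added, under DESeq2 size factors, no filter, at least 1 CPM in 3 libraries and the Wald test. In decanal against acetophenone they were 3 without a filter, 0 with only the groups compared, and 2 under each of at least 1 CPM in 3 libraries, length and GC offsets, receptor scaling, the replicate block with and without offsets, and the Wald test. In AD mixture against acetophenone they were 3 without a filter, 0 with offsets and 2 with receptor scaling, and against decanal 1 without a filter. The 2 with receptor scaling were Olfr73 and Olfr1507, both higher, and not Olfr17. For octanal against decanal responses they were 2 under every setting but the Wald test, which kept 1.

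Of the 46 sign changes, 26 came with 1 library left out, 12 with receptor scaling and 4 each with length and GC offsets without and with the block. With receptor scaling, Olfr16 was 0.12 with the AD mixture and -0.0036 with octanal. In octanal, Olfr73 was -0.31, Olfr78 -0.21, Olfr1507 -0.10 and Olfr160 -0.33. In cis-3-hexenol, Olfr73 was -0.07 and Olfr1507 -0.12, and Olfr1507 was -0.15 in the OC mixture. For the octanal minus decanal response, Olfr16 was -0.36, Olfr78 -0.47 and Olfr1507 -0.01. With length and GC offsets, without and with the block, Olfr73 in octanal was -0.10 and -0.09, Olfr160 in octanal -0.04 and -0.02, and for the response difference Olfr16 was -0.06 and -0.08 and Olfr78 -0.19 and -0.20.

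With 1 library left out, members called ranged from 0 to 1 in AD mixture against AD control, against acetophenone and in decanal against acetophenone, from 1 to 2 in octanal, 0 to 2 in cis-3-hexenol, 1 to 3 in the OC mixture and 1 to 2 for the response difference. Members whose shares of receptor counts did not overlap, a repeat chosen after seeing the data, ranged from 3 to 5 in decanal, 1 to 4 in the AD mixture, 1 to 3 in octanal and 1 to 2 in the OC mixture. Leaving out a library can only keep or add members without overlap, so these counts could not fall and their rise carries no information. Values that changed sign in such repeats ranged with acetophenone from -0.35 to 0.01 for Olfr16, -0.08 to 0.03 for Olfr17 and -0.09 to 0.01 for Olfr1507. With decanal Olfr78 ranged from -0.03 to 0.23. With the AD mixture the ranges were -0.23 to 0.13 for Olfr16, -0.15 to 0.18 for Olfr73 and -0.04 to 0.38 for Olfr1507. With octanal they were -0.25 to 0.06 for Olfr2, -0.15 to 0.33 for Olfr73, -0.02 to 0.32 for Olfr78 and -0.06 to 0.32 for Olfr160. For the response difference they were -0.03 to 0.37 for Olfr16, -0.39 to 0.11 for Olfr73 and -0.16 to 0.20 for Olfr78.

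Divided by the longest transcript, levels in the AD control were 0.336 CPM per kilobase for Olfr2, 1.67 for Olfr16, 3.28 for Olfr17, 0.884 for Olfr73, 0.424 for Olfr78 and 27.4 for Olfr1507. Libraries with the same replicate number did not deviate together (mean correlation 0.0173 for AD and -0.051 for OC). These correlations cannot tell whether such libraries were handled together. The replicate block alone moved the members called to 2 in decanal against acetophenone and for the response difference and changed no other such count. Olfr73 and Olfr78 rest on as few as 17 and 10.29 counts in a library, which limits the fold changes that can be detected.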

Other observations

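Some libraries held several members at the edge of their group at the same time. AD mixture 2 had the highest Olfr1507 (117.0 CPM) and Olfr17 (10.5 CPM) of its group and the lowest Olfr2 (1.93 CPM), Olfr16 (3.08 CPM), Olfr73 (2.27 CPM) and Olfr78 (0.723 CPM). OC control 1 had the highest Olfr2 (3.96 CPM) and Olfr1507 (95.2 CPM) of its group and the lowest Olfr16 (3.02 CPM), Olfr17 (4.32 CPM), Olfr73 (1.75 CPM) and Olfr78 (1.22 CPM). OC mixture 1 had the highest Olfr16 (7.08 CPM), Olfr17 (13.8 CPM), Olfr73 (6.02 CPM), Olfr78 (3.50 CPM) and Olfr1507 (107.0 CPM) of its group, and the largest share of receptor counts of all 24 libraries, 0.598%.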
